A study of Mus musculus with 6 samples.

Results

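The genes described here are 10 members of the smooth muscle contractile programme, chosen by symbol from the 24062 genes of the count table: Myh11, Cnn1, Tagln, Myl9, Mylk, Smtn, Lmod1, Des, Cald1 and Kcnmb1. They were picked with the difference between p27 OE and EV control in these libraries already known, so that difference is given as a description and supports nothing. All 10 had enough counts to be tested. RNA was sequenced from embryonic fibroblasts of C57BL/6 mice, which are connective tissue cells grown from embryos. In p27 OE, 3 libraries came from cells given a lentivirus that overexpresses p27, a cyclin-dependent kinase inhibitor encoded by Cdkn1b. The 3 libraries of the other group are labelled EV control, an abbreviation that the labels do not spell out. RNA was collected at day 4, when the p27 OE cells were non-senescent according to the labels, and the question was what p27 does to gene expression at that time. The sources used here name neither the promoter of the vector nor the number of embryos or cultures, so p-values may measure technical spread. The titles of the EV control libraries also name a dataset that the p27 OE titles leave out.

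Smooth muscle contracts when calcium and calmodulin activate myosin light chain kinase, which phosphorylates the regulatory light chain and lets smooth muscle myosin pull on actin. Calponin, caldesmon and transgelin bind the actin filament, and desmin and smoothelin belong to the cytoskeleton around it. Many of these genes are driven by serum response factor (SRF) together with myocardin or its relatives, through a DNA element called the CArG box. Cultured fibroblasts also express part of this set, above all when they become myofibroblasts.

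Total counts ran from 34920728 to 52098220 per library. Values are counts scaled to library size (CPM, with TMM-scaled sizes). Cdkn1b stood at 52.2, 49.9 and 51.2 CPM in EV control 1, 2 and 3 but reached 419, 978 and 460.0 CPM in the p27 OE libraries of those numbers, as the labels say. The libraries numbered 1 stood apart on the first principal component, which held 58.9% of the variance. They were also the ones with Xist at 317 and 477 CPM. Xist stood at 5.93 and 9.57 CPM in EV control 2 and p27 OE 2, and at 0.601 and 0.504 CPM in EV control 3 and p27 OE 3. Fibroblast markers summed to 53866 to 58893 CPM among EV control libraries, and 57891 to 59843 CPM among p27 OE libraries. Of 8 cardiac markers 6 were below 1 CPM on average, as were 10 of 12 skeletal muscle markers.

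Promoter sequence bears on this set because its members are known for the CArG box, so the RefSeq promoter table (GRCm38.p6) was searched in the 250 bases before each start site, on both strands. Of the 10 members 8 had an entry. Tagln and Myh11 had none, and Cald1 had several. A member was counted if any of its entries matched, whereas the shares of all promoters are per entry. The windows of Mylk and Smtn and a window of Cald1 lie wholly inside the annotated gene. The CArG box was searched as CCWWWWWWGG, with W for A or T, so copies with another letter were missed. It was found in 1 of the 8, Myl9, and in 1.47% of the 32851 promoters in the table. The sequence CATTCC, which TEAD factors bind, was found in 4 of the 8 (Cald1, Lmod1, Mylk and Smtn) and in 12.6% of all promoters. CANNTG, the E-box, was found in 4 of the 8 (Cald1, Cnn1, Des and Lmod1) and in 66.2% of all, and TATAAA in Cald1 alone and in 12.4% of all. The CArG box of Myl9 lies at chr2:156775303-156775312, from 161 to 152 bases before the RefSeq start site of the window. The gene annotation used below starts Myl9 at chr2:156775420, which is nearer to the box. No base of the box is shared with another of these motifs. A match is a description of the letters, not of a bound site, and a window without a match says only that the letters are not in it.

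Upstream stretches of 4 members follow, 5′ to 3′ on the forward strand, each ending before the first annotated exon base. Myl9 is shown as the one with a CArG box, and Des, Cnn1 and Kcnmb1 as members with higher counts in p27 OE and no such box in this window. They span chr2:156775214-156775419, chr1:75360042-75360291, chr9:22099003-22099215 and chr11:33962763-33963012 in the order Myl9, Des, Cnn1 and Kcnmb1. Capitals mark the CArG box in Myl9 and CANNTG in Des and Cnn1, and Kcnmb1 has no match to any of the 4 motifs.
Myl9: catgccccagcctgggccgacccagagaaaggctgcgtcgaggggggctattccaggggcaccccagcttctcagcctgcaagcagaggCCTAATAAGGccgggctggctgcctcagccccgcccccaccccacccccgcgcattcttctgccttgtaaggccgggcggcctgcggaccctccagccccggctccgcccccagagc
Des: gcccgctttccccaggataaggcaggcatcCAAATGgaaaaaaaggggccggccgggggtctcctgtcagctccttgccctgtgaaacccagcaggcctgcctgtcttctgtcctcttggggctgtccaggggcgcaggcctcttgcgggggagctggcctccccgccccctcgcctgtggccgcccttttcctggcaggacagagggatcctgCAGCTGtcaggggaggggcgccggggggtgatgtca
Cnn1: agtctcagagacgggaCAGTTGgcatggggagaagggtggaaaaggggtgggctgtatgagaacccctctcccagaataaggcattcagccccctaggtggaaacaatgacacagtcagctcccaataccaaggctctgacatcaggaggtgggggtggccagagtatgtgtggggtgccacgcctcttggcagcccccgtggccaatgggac
Kcnmb1: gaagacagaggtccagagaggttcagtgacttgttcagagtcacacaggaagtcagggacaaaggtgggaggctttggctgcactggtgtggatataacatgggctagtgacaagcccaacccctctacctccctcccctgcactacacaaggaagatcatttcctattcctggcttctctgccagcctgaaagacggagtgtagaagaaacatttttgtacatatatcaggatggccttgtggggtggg

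Myh11, the smooth muscle myosin heavy chain and the motor of the set, differed most between the groups. It stood at 44.0, 48.2 and 60.1 CPM across EV control 1, 2 and 3, whereas the p27 OE libraries had 103, 101 and 116 CPM. The groups did not overlap, and the lowest p27 OE library was above the highest EV control library. In bulk RNA more cells of a contractile type and more RNA per cell cannot be told apart. The ratio within libraries of the same number was 2.35, 2.09 and 1.93. With the number as a block, edgeR gave a log2 fold change of 1.08 ± 0.06 (SE, n = 3 pairs). The gene lies at chr16:14194535-14291372 on the reverse strand.

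Light chain and kinase, the partners of that motor, differed by less than the spread between libraries. Myl9, the regulatory light chain that the kinase phosphorylates (chr2:156775420-156781658, forward strand), was at 500.5, 606 and 608 CPM across EV control, against 498, 609 and 674 CPM across p27 OE. Its ratio within numbers was 0.995, 1.01 and 1.11, so libraries 1 and 2 hardly differed by group. Mylk, myosin light chain kinase (chr16:34745210-35002420, forward), was at 78.6, 91.1 and 99.9 CPM across EV control, against 89.4, 94.4 and 109 CPM across p27 OE. Each p27 OE library was a little above its EV control partner, and the groups overlapped. The paired log2 fold change was 0.05 ± 0.06 for Myl9 and 0.12 ± 0.06 for Mylk. Mylk counts do not separate the long and short kinase forms from telokin, the short protein made from the end of the same gene.

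The actin-binding members Cnn1, Tagln and Cald1 were higher in p27 OE within each number, and their groups overlapped because the libraries numbered 1 were low in both. Cnn1, calponin 1 (chr9:22099216-22109630, forward), was at 168, 339 and 351 CPM across EV control, against 226, 452 and 441 CPM across p27 OE. Tagln, transgelin or SM22 alpha (chr9:45929619-45936058, reverse), was at 1676, 2784 and 2916 CPM across EV control, against 1870.0, 3805 and 3596 CPM across p27 OE. For both genes p27 OE 1 was below EV control 2 and 3, while p27 OE 2 and 3 were above all EV control libraries. Cald1, caldesmon (chr6:34598500-34775473, forward), was at 1224, 1779.9 and 1835 CPM across EV control, against 1408, 2168 and 2155 CPM across p27 OE, in the same order. Ratios within numbers 1, 2 and 3 were 1.35, 1.33 and 1.26 for Cnn1. For Tagln they were 1.12, 1.37 and 1.23, the smallest in number 1. Cald1 had 1.15, 1.22 and 1.17. The paired log2 fold changes were 0.39 ± 0.05, 0.30 ± 0.07 and 0.24 ± 0.06. Cald1 counts join the smooth muscle form and the shorter form of other cells.

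Smtn, smoothelin, a cytoskeletal protein of contractile cells (chr11:3517523-3540612, reverse), varied least. It was at 151, 151 and 157 CPM across EV control, against 182, 169 and 176 CPM across p27 OE, so the groups did not overlap although the paired log2 fold change was 0.20 ± 0.05. Lmod1, leiomodin 1, which nucleates actin filaments in smooth muscle (chr1:135324807-135368065, forward), was at 70.0, 133 and 136 CPM across EV control, against 82.3, 129.8 and 138 CPM across p27 OE. Only in number 1 was there a visible difference, with ratios of 1.18, 0.976 and 1.02, and the paired log2 fold change was 0.07 ± 0.06. Lmod1 thus differed more between library 1 and the other libraries of its group than between the groups.

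Des, desmin, the intermediate filament of muscle cells (chr1:75360329-75368579, forward), was at 83.6, 115 and 124 CPM across EV control, against 129.6, 202 and 192 CPM across p27 OE. Every p27 OE library was above every EV control library, although p27 OE 1 was close to EV control 3. The ratios within numbers were 1.55, 1.76 and 1.55, and the paired log2 fold change was 0.69 ± 0.06. Kcnmb1, the beta 1 subunit of the calcium-activated potassium channel of smooth muscle (chr11:33963013-33973641, forward), was the rarest member, at 2.24, 5.54 and 5.12 CPM across EV control, against 2.92, 11.3 and 10.7 CPM across p27 OE. Its counts came to 121, 196 and 256 under EV control and to 133, 435 and 403 under p27 OE. The ratio was 1.30 in number 1 against 2.05 and 2.08 in numbers 2 and 3, and p27 OE 1 was below EV control 2 and 3. The paired log2 fold change was 0.86 ± 0.15, with the largest SE of the 10 members.

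**Figure D1:**
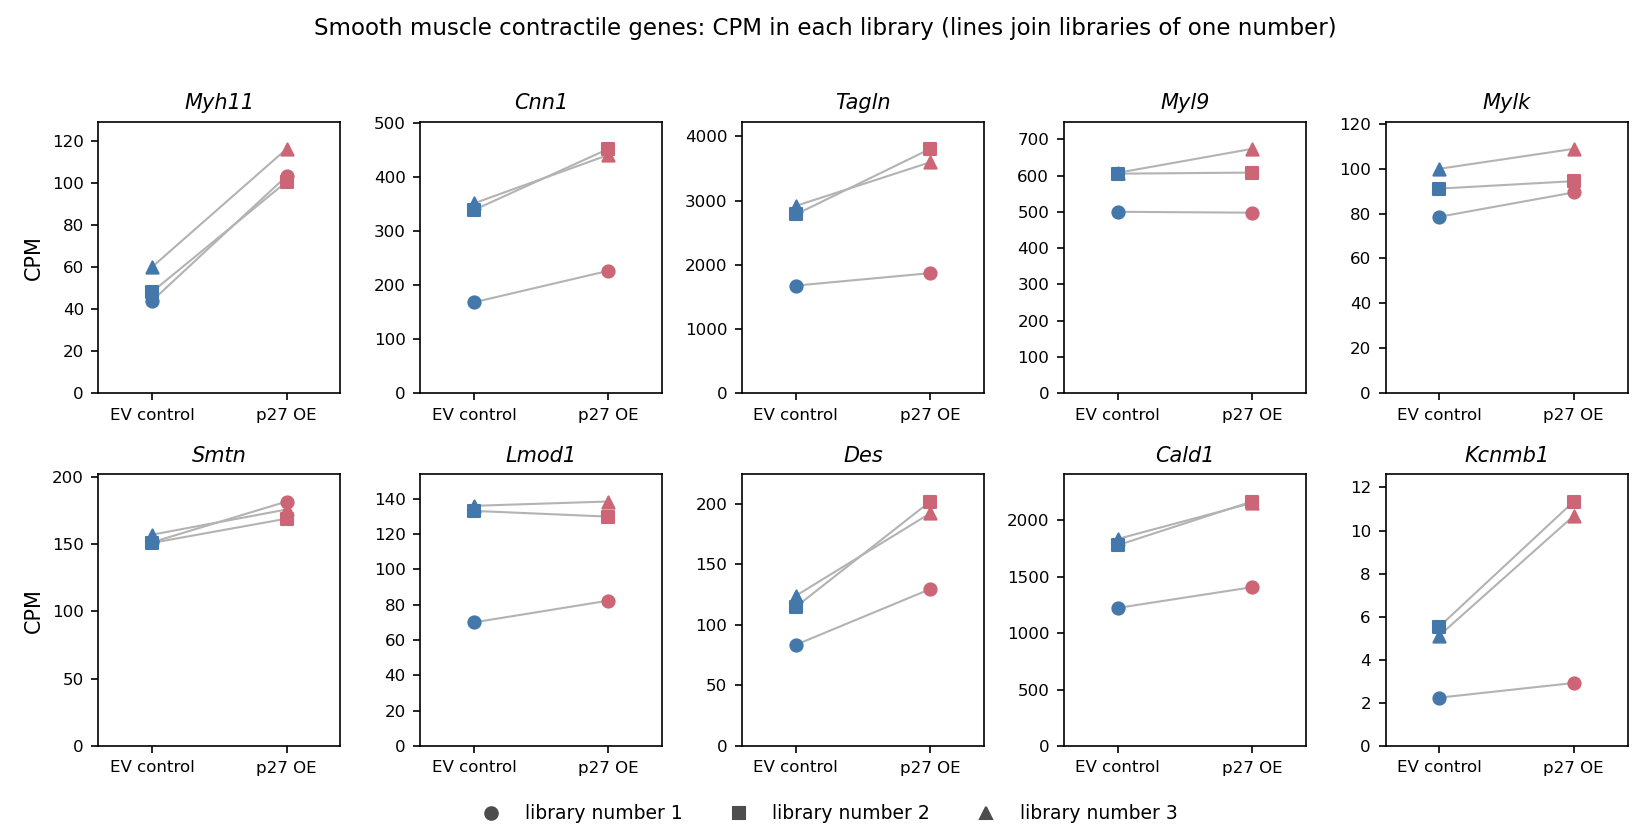
CPM of each of the 10 genes in each library, with EV control on the left and p27 OE on the right of every panel, marker shapes for the library numbers and lines joining libraries of the same number. Myh11 stands at no more than 60.1 CPM in EV control and at least 101 CPM in p27 OE, and in Cnn1, Tagln, Lmod1, Cald1 and Kcnmb1 the libraries numbered 1 lie below the rest in both groups.

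Of the 10 members 8 were higher in p27 OE in each of the 3 pairs, a pattern found in 21.8% of all tested genes. Groups without overlap, p27 OE higher, were found in 3 members (Myh11, Smtn and Des) and in 6.61% of all tested genes. The median log2 ratio of the members was 0.25, 0.35 and 0.27 in pairs 1, 2 and 3, and that of all tested genes was -0.0073, -0.0046 and -0.0015. These counts come from the contrast that the choice of members used, and nothing is read from them.

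Without a term for the number, edgeR's quasi-likelihood test called 0 of the 10 members and 0% of the 14090 tested genes at a Benjamini-Hochberg adjusted p of 0.05. At an unadjusted p of 0.05 it gave 3 members and 1017 genes in all. DESeq2 without the block called 1 member, Myh11, and 0.671% of the genes it gave an adjusted p, and limma-voom called 0 members. With the library number as a block edgeR called 7 members higher and 0 lower, against 3.8% of all tested genes called higher and 3.63% lower, or 7.43% either way. Upper-quartile scaling with the block gave 483 higher and 736 lower calls, against 535 and 512 with TMM. The 7 were Myh11, Des, Cnn1, Kcnmb1, Tagln, Cald1 and Smtn, and Mylk, Lmod1 and Myl9 were not called. Cdkn1b, the overexpressed gene, was not called by edgeR either, at an adjusted p of 0.180 without the block and 0.0873 with it. Of 7 fits with the block on all libraries, 2 called it. A gene that was not called can thus still differ between the groups. DESeq2 with the block left out Tagln (adjusted p 0.321), and upper-quartile scaling and limma-voom left out Smtn (adjusted p 0.0559 and 0.0526). Without both libraries numbered 3, 3 members were called higher (Myh11, Des and Cnn1) and 0 lower, against 1.58% and 0.746% of the genes tested in that fit. Without those numbered 2, 6 were called higher, Smtn being lost, and 0 lower, against 3.51% and 2.97%. Without those numbered 1, which stood apart, 7 were called higher and 0 lower, against 6.36% and 6.04%.

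**Figure D2:**
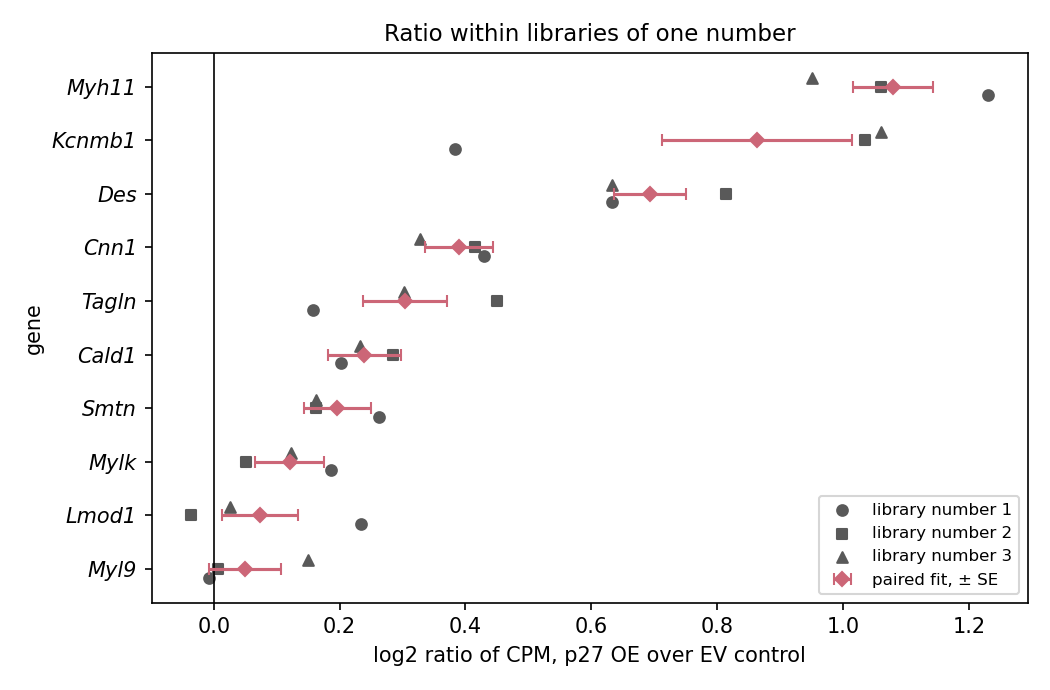
Log2 ratio of CPM, p27 OE over EV control, within each library number (grey shapes) and the log2 fold change of the paired edgeR fit with its SE (red diamonds), for the 10 genes in order of that fold change. Myh11 is highest at 1.08, Myl9 lowest at 0.05, and the library numbers agree least for Kcnmb1.

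Tagln was the most abundant member per exon length and Kcnmb1 the rarest. Levels in EV control, as CPM per kilobase of annotated exon (RPKM), were 1237 ± 343 for Tagln (SD, n = 3), 492 ± 52.8 for Myl9, 134 ± 28.1 for Cald1 and 105 ± 37.4 for Cnn1. Smtn followed at 34.9 ± 0.775, Des at 28.6 ± 5.65 and Lmod1 at 28.6 ± 9.45 RPKM. Mylk was at 7.98 ± 0.953, Myh11 at 6.68 ± 1.10 and Kcnmb1 at 1.03 ± 0.429 RPKM. The actin-binding genes Tagln, Cald1 and Cnn1 and the light chain were thus the abundant ones. The kinase, the myosin heavy chain and the channel subunit were the scarce ones. The EV control ranges of neighbours overlapped for Cald1 and Cnn1, for Des and Lmod1 and for Mylk and Myh11, whereas the other neighbours did not overlap. Within single libraries Cald1 was above Cnn1 and Mylk above Myh11 in 3 of 3, but Des was above Lmod1 in 1 of 3, so that order is not settled. In p27 OE the mean of Des, 46.5 ± 10.5 RPKM, was above that of Smtn, 40.0 ± 1.45, but their ranges overlapped and Des was the higher in 2 of 3 libraries. Myh11, at 14.04 ± 1.10 RPKM, was above Mylk at 8.66 ± 0.894 with no overlap, and the rest of the order was that of EV control. Cald1 depends on the length used: with its longest transcript in place of all annotated exons it was at 338 RPKM, and the order stayed as given.

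**Figure D3:**
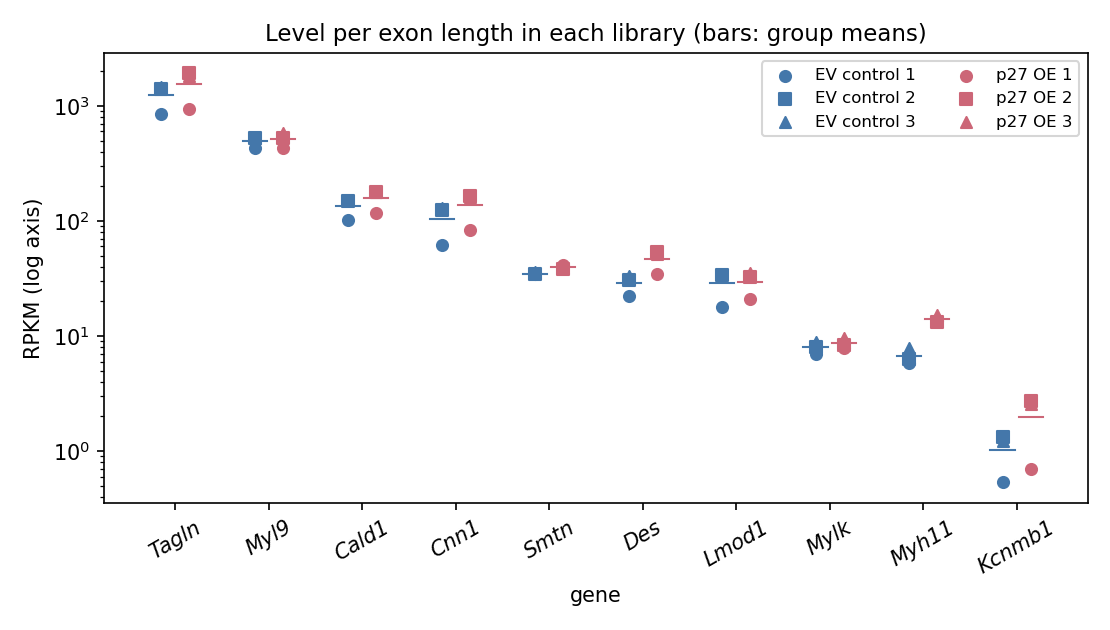
Level of each gene per exon length (RPKM, log axis) in each library, in order of the EV control mean, with EV control in blue, p27 OE in red and short bars for group means. Levels run from 1237 RPKM for Tagln to 1.03 RPKM for Kcnmb1 in EV control, and Myh11 and Mylk change places in p27 OE.

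Summed over the 10 members, the level was a mean of 5448 ± 1261 CPM for EV control and 6647 ± 1781 CPM for p27 OE (SD, n = 3). Tagln made up 40.7% to 49.2% of the sum in each library. The ratio within numbers was 1.15, 1.28 and 1.21, and 1.17, 1.20 and 1.19 with Tagln left out.

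The members also differed between library numbers, a comparison that the choice of members did not use. Library 1 was below libraries 2 and 3 in both groups for 8 of the 10, against 32.1% of all tested genes. The exceptions were Myh11 and Smtn. The ratio of library 1 to the mean of libraries 2 and 3 had a median over members of 0.688 in EV control and 0.654 in p27 OE, and of 0.998 and 1 over all tested genes. It was lowest for Kcnmb1, at 0.420 and 0.265, a pair of ratios that 0.61% of tested genes matched or undercut in both groups. Cnn1 had 0.488 and 0.507, Tagln 0.588 and 0.505 and Lmod1 0.520 and 0.613, with 2.19%, 2.90% and 3.17% of tested genes as low. At the other end Smtn had 0.983 and 1.05 and Myh11 0.813 and 0.953. The spread between EV control libraries had a median coefficient of variation of 20.4% over members and 11.1% over all tested genes, from 2.22% for Smtn to 41.8% for Kcnmb1. No test was made, since the numbers are not groups of the study, and the labels do not say what they stand for. Beside Xist, the Y-linked gene Ddx3y moved with the number: number 1 had 0.0556 and 0.0220 CPM of it and the rest 54.3 to 65.5 CPM. On Xist and Ddx3y number 1 had the pattern of female cells, and the rest that of largely male cells. The part of this difference in the result was not tested.

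**Figure D4:**
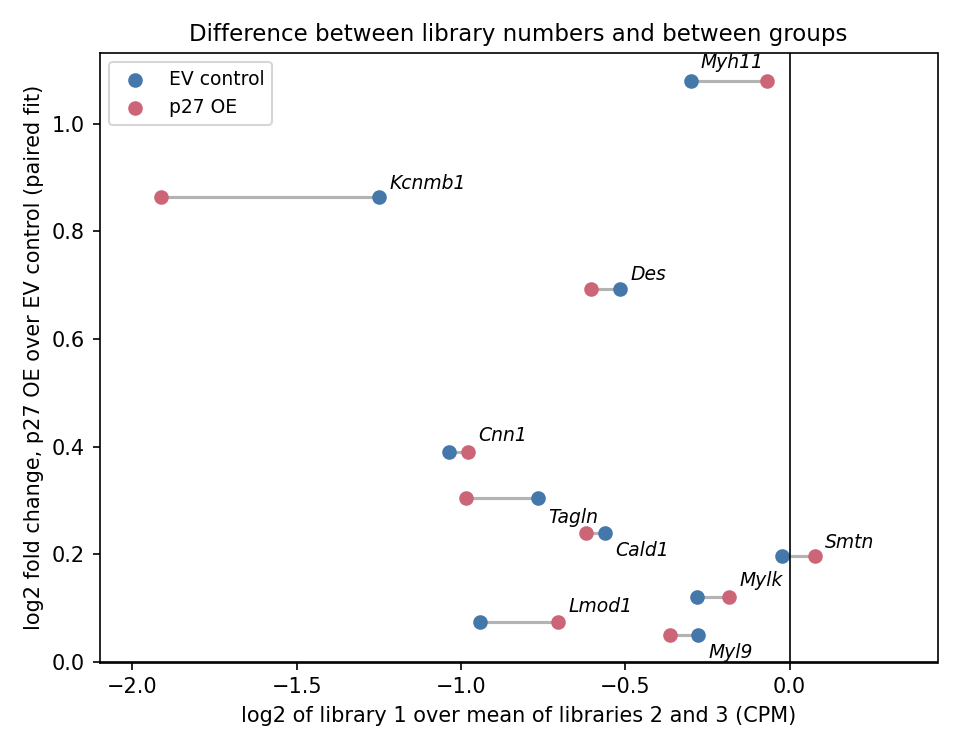
For each gene, the log2 ratio of library 1 to the mean of libraries 2 and 3 in EV control (blue) and in p27 OE (red) on the horizontal axis, against the paired log2 fold change between the groups. Kcnmb1 lies furthest to the left, with a fold change of 0.86, and Lmod1 lies far to the left with 0.07. Smtn lies nearest 0 on the horizontal axis with 0.20, and Myh11 has the largest fold change, 1.08.

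Over the 6 libraries the members' mean profile on the log2 scale took the values -0.59, -0.036 and 0.035 for EV control 1, 2 and 3, then -0.22, 0.39 and 0.43 for the p27 OE libraries, relative to each gene's mean. The genes most like it among 10599 others with a mean of at least 5 CPM were Cry2, Xpot, Chd1, Diras2 and Rnmt. Their Pearson r over these 6 libraries was between 0.996 and 0.998. All share the low values of the libraries numbered 1, and r is given as a description only. Cry2, a repressor of the circadian clock, was at 27.6, 34.4 and 34.8 CPM across EV control, against 31.4, 41.2 and 41.4 CPM across p27 OE.

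Other smooth muscle genes were a list of 25, of which 23 were tested. This list, like the lists after it, was chosen with earlier results of these data known, so its counts are a description only. The paired log2 fold change was positive in 17 of the 23, against 49.6% of all tested genes. With the block, edgeR called 9 higher and 1 lower, against 3.8% and 3.63% of all tested genes, and 13 did not pass. Without it 0 were called by edgeR and by limma-voom, 5 had an unadjusted p under 0.05, and DESeq2 called 3, Actg2, Mrvi1 and Tpm2, the last named after its values were seen. The median paired log2 fold change was 0.22, against 0.27 for the members and -0.0012 for all tested genes. Actg2, the enteric smooth muscle actin, rose from 253, 301 and 309 CPM in EV control to 363, 484 and 533 CPM in p27 OE, with no overlap (0.66 ± 0.06, adjusted p 4.88e-05, edgeR with the block). Synpo2, synaptopodin 2, an actin-bundling protein, rose by 0.77 ± 0.10 (adjusted p 0.000916) and Mrvi1, which takes part in nitric oxide signalling to smooth muscle, by 0.51 ± 0.09 (adjusted p 0.00715). Acta2, smooth muscle alpha actin, was the most abundant of the list at 4757 ± 1194 CPM with EV control and 5583 ± 1533 CPM with p27 OE (SD, n = 3). It rose by 0.22 ± 0.06 with the block (adjusted p 0.0403) and its adjusted p was 0.319 with both libraries of number 3 left out. The gene called lower, chosen after its values were seen, was Pgm5, an adhesion protein of muscle. It fell by 0.31 on the log2 scale (adjusted p 0.0144, edgeR with the block). Without the libraries numbered 3 the count was 4 higher and 0 lower, beside 1.58% and 0.746% of all tested genes.

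The closest relatives of the members, 20 of 24 tested, had 3 called higher and 1 lower with the block, and a median of 0.058. Of all tested genes 3.8% were called higher and 3.63% lower. The 3 were Nes, Myh10 and Synm, an intermediate filament gene also counted among the other smooth muscle genes and named after its values were seen. Nes, nestin, an intermediate filament relative of Des, was at 67.7, 87.9 and 105 CPM across EV control, against 86.4, 162 and 164 CPM across p27 OE (0.63 ± 0.09, adjusted p 0.00788, edgeR with the block). Myh10, a nonmuscle myosin heavy chain, rose by 0.29 ± 0.06 (adjusted p 0.0137, but 0.0806 with number 3 left out). Myl12b, a nonmuscle regulatory light chain, fell from 98.4, 102 and 106 CPM to 73.3, 87.0 and 89.8 CPM with no overlap (adjusted p 0.00955). Its near-identical copy Myl12a was not called, and reads that match both may have been split between them. The calponins Cnn2 and Cnn3 and transgelin 2, relatives of Cnn1 and Tagln in other cells, had paired log2 fold changes of -0.084, -0.038 and 0.12, none called.

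Of 22 tested regulators of the programme, 1 was called higher and 0 lower with the block, and the median was 0.097. The shares of all tested genes were 3.8% higher and 3.63% lower. Srf was at 58.3, 75.5 and 75.4 CPM across EV control, against 65.5, 76.8 and 74.0 CPM across p27 OE (0.05 ± 0.06, adjusted p 0.628). Myocd, myocardin, the coactivator of SRF in smooth muscle, was scarce at 1.02, 2.32 and 1.82 CPM across EV control, against 0.637, 3.13 and 3.05 CPM across p27 OE, so counts of 29 to 120 lay behind it (0.26 ± 0.27, adjusted p 0.601). The related coactivators Mkl1 and Mkl2, which move to the nucleus when actin polymerises, had 0.13 ± 0.06 and 0.08 ± 0.07 (adjusted p 0.210 and 0.558), and Mkl1 had 0.061 without the libraries numbered 3 and Mkl2 0.017 without those numbered 1. Their transcripts do not report on that movement. The called gene was Mef2a, a transcription factor of muscle genes (0.28 ± 0.06, adjusted p 0.00909, but 0.111 with number 3 left out). Hey2, a Notch target, had 1.09 ± 0.34 at a mean of 0.487 CPM in EV control, and Tead1, which binds CATTCC, had 0.16 ± 0.06 (adjusted p 0.0666 and 0.0922).

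Genes that set myosin phosphorylation, through calmodulin and myosin phosphatase among others, gave 1 call, higher, among 23 tested, with a median of 0.058. Among all tested genes the block fit called 3.8% higher and 3.63% lower. Rock2, a kinase that inhibits the phosphatase, was at 162, 237 and 258 CPM across EV control, against 217, 290.0 and 318 CPM across p27 OE (0.34 ± 0.05, adjusted p 0.00327, edgeR with the block). Dapk3, which phosphorylates the light chain, had -0.20 ± 0.07 and Arhgef2, a guanine nucleotide exchange factor, 0.15 ± 0.06 (adjusted p 0.0870 and 0.118).

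**Figure D5:**
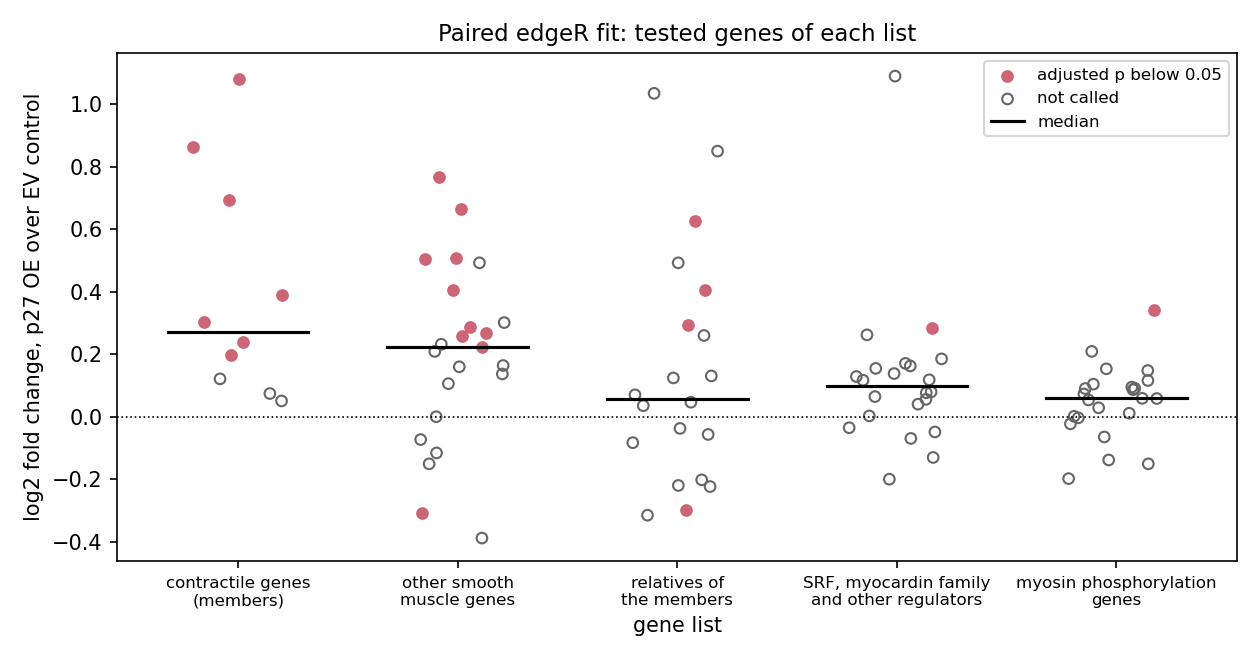
Log2 fold change of the paired edgeR fit for every tested gene of the members and of the 4 other lists, filled where the adjusted p was below 0.05, with a line at each median. The medians are 0.27 for the members and 0.22 for other smooth muscle genes, and 0.058, 0.097 and 0.058 for relatives, regulators and myosin phosphorylation genes.

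Markers of other contractile cells were counted beside these values. For comparison, 3.8% of all tested genes were called higher and 3.63% lower with the block. Of 8 pericyte and mural cell markers 4 were called higher and 0 lower with the block. Their sum ranged from 524 to 724 CPM among EV control libraries, and from 628 to 749.9 CPM among p27 OE libraries. The skeletal muscle list summed to 22.9 to 52.9 CPM among EV control and 54.2 to 136 CPM among p27 OE libraries, most of it Acta1, while Myf5 and Ckm had no count in any library. Of the 6 tested skeletal markers 1 was called, higher, and of the 4 tested cardiac markers 0. In the fibroblast list 2 of 10 were called lower and 0 higher. The 6 macrophage markers summed to 44.0 to 54.1 CPM among EV control and 40.3 to 72.2 CPM among p27 OE libraries. The 6 endothelial markers summed to 2.94 to 4.57 CPM and 4.80 to 5.29 CPM in that order. Both lists had 1 call each, higher. Named after their values were seen, the called genes were Rgs5, Rgs4, Mcam and Cspg4 (mural), Acta1 (skeletal), Lum and Pdgfra (fibroblast), Emr1 (macrophage) and Emcn (endothelial). The part of such cells in the members' values was not tested.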

How the data were processed

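The deposited file holds whole-number counts per gene symbol for the 6 libraries, not normalized, per the file headers and values. The submitters' processing notes name build mm10, featureCounts 1.4.6 of Subread, Bowtie2 2.2.6 and TopHat2 2.0.14. Annotation, strand setting and multi-mapping rule were not stated by the sources used here. The TruSeq version 2 kit named in the labels' protocols does not mark strand, so antisense reads cannot be told apart. Antisense gene models overlap 62.4% of the exon bases of Tagln and 16.3% of those of Smtn, and less of Mylk and Des.

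Genes were kept with filterByExpr (minimum count 10, minimum total 15) and scaled by TMM. Tests used edgeR 4.0.16 (quasi-likelihood, robust, two-sided, Benjamini-Hochberg over the 14090 tested genes, threshold 0.05) in R 4.3.3, without and with the library number as a block. Deviations from the group mean correlated at 0.772, 0.416 and 0.535 between libraries of numbers 1, 2 and 3, each above 0.1. The numbers in the titles were therefore taken to pair the libraries. Numbers 2 and 3 crossed gave 0.408 (EV control 3 and p27 OE 2) and 0.391 (EV control 2 and p27 OE 3). Because number 1 stood apart in both groups, this check cannot tell whether numbers 2 and 3 are paired as numbered. Xist followed the numbering, at 5.93 and 9.57 CPM in number 2 and 0.601 and 0.504 CPM in number 3, EV control first. Alternatives were DESeq2 1.42.0, limma-voom (limma 3.58.1), other scalings and filters, and libraries left out. SE were taken from the F statistic. With 3 against 3 an exact permutation test cannot go below 0.1. RPKM used exon lengths of GENCODE M21 (GRCm38, the assembly of mm10). The fits were run on simulated data, where only edgeR with the block was held to a limit on directions and false calls. Both groups shared the number effects in that simulation, so it does not test the pairing. Replicates differed by more than sampling noise (smallest mean chi-square per gene 9.67).

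The members and lists were chosen with earlier results of these data known. Named are all members, 3 genes of each list by smallest paired p, Acta2, Srf, Myocd, Mkl1, Mkl2, Cdkn1b and the 5 genes most like the members' profile.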

Additional observations from a re-analysis of the deposited data

How the results depend on the processing

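Depth limits Kcnmb1, Myocd and Hey2, which rest on few counts, and with 3 pairs the variance of a gene is drawn toward a trend over all genes. The direction of 8 of the 10 members held under every setting run, and the exceptions were Myl9 and Lmod1. Without EV control 1, Myl9 had a log2 fold change of -0.032, Lmod1 of -0.20 and Srf of -0.067. Lmod1 had -0.030 without p27 OE 2, and without p27 OE 3 Myl9 had -0.048 and Lmod1 -0.093. With the block and without the libraries numbered 1, Lmod1 had -0.0052 and Srf -0.0024, and without those numbered 3 Myl9 had -0.00029 and Myocd -0.037. Over all runs that left out libraries the highest values were 0.17 for Myl9, 0.25 for Lmod1, 0.11 for Srf and 0.85 for Myocd. Without the block, leaving out 1 library moved the log2 fold change by over 1.5 times in 6 of the 10 members (Cnn1, Tagln, Cald1, Mylk, Myl9 and Lmod1) and in 18 of 23 other named genes. It was lowest without EV control 1 and highest without p27 OE 1 for Cnn1 (0.11 to 0.64), Tagln (0.12 to 0.59), Cald1 (0.079 to 0.42) and Acta2 (0.035 to 0.44), and Mylk ran from 0.029 to 0.20. With the block, leaving out a number moved it that far in 2 members (Myl9 and Lmod1) and in Srf, Myocd, Mkl1 and Mkl2, none of them called. The cause was not tested.

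The block moved the count of calls from 0 to 1047 genes, 7 members, 10 other smooth muscle genes, 4 relatives, 1 regulator and 1 myosin phosphorylation gene. With RLE scaling as well the counts were 1042, 7, 10, 4, 1 and 1 in that order, with upper-quartile scaling 1219, 6, 9, 3, 1 and 1, with no filter 1416, 7, 10, 4, 1 and 1, and with at least 1 CPM in 3 libraries 1018, 7, 10, 4, 1 and 1. With the block DESeq2 gave 830, 6, 9, 4, 1 and 1, and limma-voom 829, 6, 9, 3, 1 and 1. With the block, leaving out the libraries of a number gave 330 to 1741 genes (928 without number 2), 3 to 7 members, 4 to 11 other smooth muscle genes, 3 to 6 relatives, 0 to 2 regulators and 1 to 5 myosin phosphorylation genes, the lowest without number 3 and, for relatives and myosin phosphorylation genes, equally low without number 2. Unpaired, DESeq2 called 89 genes, 1 member and 3 other smooth muscle genes, edgeR with no filter called 1 gene, and edgeR without single libraries called 0 to 1. The share of calls that were higher was 51.1% with the block and 39.6% with upper-quartile scaling as well, which shifted the median of all genes to -0.022.

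With the longest transcript as length, Mylk was at 11.5, Smtn at 45.2, Des at 35.5 and Cald1 at 338 RPKM in EV control. With the whole promoter window, 50 bases longer, 7 members held CANNTG.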
